A study of Mus musculus with 2 samples.

Results

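The SLAM family is a set of immunoglobulin-like receptors on blood-derived cells, and Sh2d1a encodes SAP, the small SH2-domain adaptor that carries their signals in lymphocytes. The members are the array's probes for 10 genes, taken by the gene name that both array files give: the receptor genes Slamf1, Slamf6, Slamf7, Slamf8, Slamf9, Cd48, Cd84, Cd244 and Ly9, and Sh2d1a. They have 22 of the 56605 probes on the array, and all 10 genes are among the 15274 named genes that were measured, that is, well above background on at least 1 array. The rule uses gene names and no measured value.

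Most SLAM receptors bind a second copy of themselves on a neighbouring cell, while Cd244 (2B4) binds Cd48, a receptor held in the membrane by a lipid anchor. The tails of Slamf1, Slamf6, Ly9, Cd84 and Cd244 carry tyrosine switch motifs that recruit SAP, which brings in the kinase Fyn; Slamf7 works through the related adaptor EAT-2. Slamf8 and Slamf9 lack such motifs and are known mainly from myeloid cells. In lymphoid follicles, SAP in T cells is needed for lasting contact with B cells and so for germinal centres.

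RNA came from cells of Peyer's patches, gut-wall lymphoid tissue of the mouse small intestine, released with dispase, collagenase and DNase. The mice were of the strain C57BL/6 and of the genotype S100A4-GFP transgenic, which both groups share; the groups are the S100A4-negative and the S100A4-positive cells of a sort by flow cytometer, with 1 sample and 1 array each, called negative and positive cells from here on. The number, age and sex of the mice, and how many were pooled, are not given in the sources used here. The question was how the profiles of the sorted fractions differ.

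Since each group is a single array, no value has a replicate check and nothing was tested. Every difference here is S100A4-positive minus S100A4-negative, on the log2 scale, after each array was centred on its own 75th percentile (a signal of 446 for negative and 287 for positive cells). The error after ± is the scanner software's for a spot, 0.20 for the difference of a typical gene, and covers neither mice nor sorts nor labelling. A probe not well above background on 1 array has only a bound there, and its fold is given as at least so much. Where its reading there exceeded the array's lowest signal well above background, the bound is the plain ratio to that reading. It is then no strict limit and is given as a plain ratio. Of the array's 59305 non-control spots, 53.3% and 52.3% were well above background for negative and positive cells, and none was saturated. S100a4 itself was 175-fold higher in the positive fraction (7.45 ± 0.20). In such bulk samples, fewer cells of a type and less RNA per cell cannot be told apart.

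The probes that carry the results are shown here as the array files hold them, 5′ to 3′, with positions on mouse build mm9. A probe with a reading frame free of stops is given whole (60 bases) where it matches across a splice junction or where more than 1 frame is open, and the others by their first 30 bases; exon and UTR annotations of that build were not used here. Capitals mark the 18 bases in the Cd244 probe that match codons of the tyrosine switch motif in a frame with no stop, a match found in 0.343% of all 56605 probes and in no other probe of the members.
Sh2d1a probe A_55_P2745462, chrX:39873846-39873905, plus strand: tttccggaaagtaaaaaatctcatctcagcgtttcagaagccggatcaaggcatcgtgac
Sh2d1a probe A_55_P1958146, chrX:39875116-39875175, plus strand: ggattggaaaactgaatcccttagggtatt
Slamf1 probe A_52_P158959, chr1:173718133-173722451, plus strand: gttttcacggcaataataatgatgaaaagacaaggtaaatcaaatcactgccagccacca
Slamf1 probe A_52_P550173, chr1:173730343-173730402, plus strand: ttttagagcctcttatgcttcaaacaacag
Slamf6 probe A_52_P45563, chr1:173866817-173868145, plus strand: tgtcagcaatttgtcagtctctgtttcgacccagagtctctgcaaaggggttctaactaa
Slamf6 probe A_66_P140847, chr1:173883204-173883263, plus strand: aggtggctatggggatggagttactcttct
Cd244 probe A_52_P541344, chr1:173507474-173508000, plus strand: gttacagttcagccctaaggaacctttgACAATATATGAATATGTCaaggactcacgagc
Slamf7 probe A_52_P261262, chr1:173569299-173569358, minus strand: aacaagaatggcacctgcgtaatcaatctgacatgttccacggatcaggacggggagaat
Slamf8 probe A_51_P444290, chr1:174512067-174512126, minus strand: ggggtctgagttccttgtgttcaagatgtt
Slamf9 probe A_51_P246066, chr1:174408455-174408514, plus strand: tgggattgggatcagagttgaacatctaaa

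Members lay on both sides of 0, and 5 of 10 within 2-fold. Slamf8 and Slamf9 were far higher in the S100A4-positive fraction, Sh2d1a, Slamf1 and Slamf6 were lower, and Cd48, Cd84, Cd244, Ly9 and Slamf7 lay within 2-fold. So 2 of 10 members passed 2-fold upwards and 3 downwards, where 21.4% and 17.0% of all 15274 measured genes were higher and lower by that size. On the scale of the E1A spike-in controls, synthetic RNAs whose probes were 3.51-fold brighter on the positive array, those shares were 4.03% and 82.5%, and without scaling 12.9% and 35.0%; the median of all genes lay 2.40 and 0.59 lower on these scales, and changes here are relative to the 75th percentile. Relative to the 75th percentile, the count of higher members is close to its background. That of lower members is somewhat above its own, rests on few genes and was not tested. The median over the members was 0.31 and that over all genes 0.01.

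**Figure D1:**
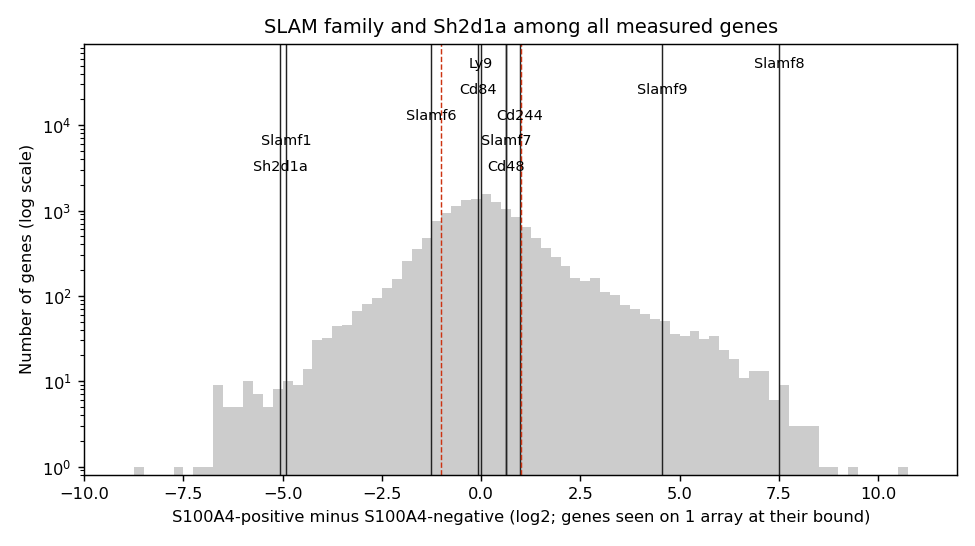
Number of measured genes (log scale) by the difference between the S100A4-positive and S100A4-negative array on the log2 scale, with each member's value as a black line and the 2-fold sizes as dashed lines. Slamf8 (7.51) and Slamf9 (4.56) lie in the upper tail, Slamf1 (-4.91) and Sh2d1a (-5.06) in the lower tail, and the other members between -1.27 and 0.97.

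Sh2d1a, the SAP adaptor gene, had 5 probes, and the 3 that detected it did so only in the S100A4-negative fraction. The brightest of them, A_55_P1958146, gave 845 signal units in negative cells and 16.3, not well above background, in positive cells. By the plain ratio it was 33.4-fold lower (-5.06 ± 0.36). Probe A_51_P172514 read 309 against 7.78, at least 12.6-fold lower, and probe A_55_P2745462 read 229 against 5.34, at least 9.39-fold lower. All 3 probes thus put the gene on the same side, each as a bound. The other probes, A_52_P641747 and A_55_P2012071, lie farther along the X chromosome on the plus strand, match a cDNA clone and an Ensembl transcript, and were well above background on neither array.

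Slamf1 encodes CD150, the receptor that gave the family its name, found on activated T and B cells and on some myeloid cells. Probe A_52_P550173 read 827 in negative cells and 17.7, not well above background, in positive cells, 30.1-fold lower by the plain ratio (-4.91 ± 0.36). The other Slamf1 probe, A_52_P158959, matches across 4319 genomic bases and so crosses a splice junction. It was dim already in negative cells (33.8) and read 5.58, not well above background, in positive cells. Its bound is only at least 1.38-fold lower (-0.47 ± 0.93). That bound is smaller than its scanner error, so the lower level of Slamf1 in the positive fraction rests on A_52_P550173. The bound of the dim probe cannot tell whether the gene lay within 2-fold or beyond it.

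Slamf6, or Ly108, a homotypic receptor of T, B and natural killer cells, was lower at all 3 of its probes, each well above background on both arrays. The probe nearest the gene's start, A_52_P45563, read 2254 in negative and 604 in positive cells, 2.40-fold lower (-1.27 ± 0.20). The next, A_55_P2723449, read 1065 and 103, 6.67-fold lower (-2.74 ± 0.21). The probe farthest along the chromosome, A_66_P140847, which is named for an Ensembl transcript, read 1007 and 46.2, 14.0-fold lower (-3.81 ± 0.23). The gene's value in the counts is that of the brightest probe, which is also the smallest of the 3 differences. Between the first and the last probe the difference changed by more than its scanner errors. Slamf6 was the member just past the 2-fold size, and Cd244 the one just short of it.

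**Figure D2:**
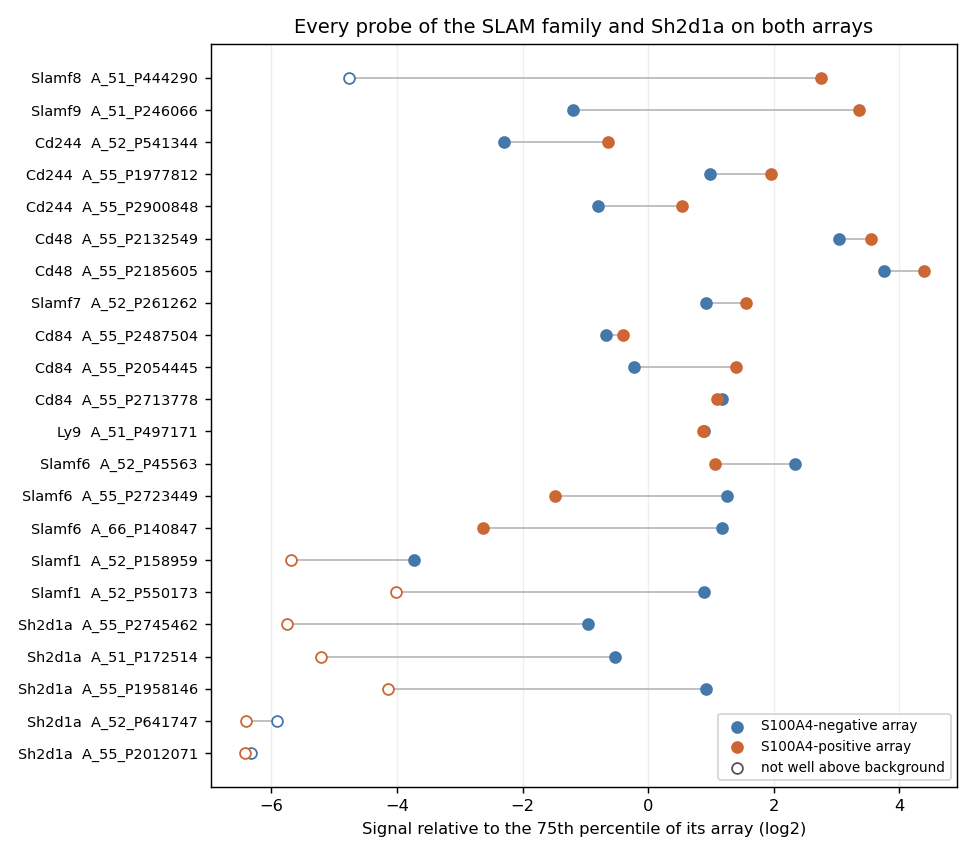
Signal of each of the 22 probes over its own array's 75th percentile (log2), blue for the S100A4-negative and orange for the S100A4-positive array, with open circles for signals not well above background. The Slamf8 and Slamf9 probes lie far to the right on the positive array, 3 of 5 Sh2d1a probes and both Slamf1 probes lie to the left as open circles, the Slamf6 probes differ by -1.27 to -3.81, and the Cd48, Ly9 and Slamf7 probes close together; levels of different probes are not comparable.

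Cd244, the Cd48-binding receptor 2B4 of natural killer cells and other cytotoxic and myeloid cells (Cd244a in the gene table), was somewhat higher at all 3 probes relative to the 75th percentile. Probe A_55_P1977812 read 887 in negative and 1118 in positive cells (0.97 ± 0.20, 1.96-fold), the brightest probe and so the gene's value. Probe A_52_P541344, which covers the switch motif, read 90.6 and 185 (1.66 ± 0.21, 3.17-fold). Probe A_55_P2900848 read 258 and 417 (1.33 ± 0.21, 2.51-fold); at chr1:173539819-173539877 it lies on the far side of the Ly9 probe, and it is named for an Ensembl transcript. Thus 2 of 3 probes passed 2-fold and the one used for the count did not. On the scale of the E1A spike-in controls all 3 values lay below 0 (gene value -1.48), so the direction holds only relative to the other genes of its array.

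Cd48, a broadly expressed leukocyte surface protein and the ligand of 2B4 and of Cd2, was measured at nearly the same raw signal in both fractions. Probe A_55_P2185605 read 6047 in negative and 6022 in positive cells (0.63 ± 0.20 after centring), and probe A_55_P2132549 read 3667 and 3390 (0.52 ± 0.20). Without scaling the difference was -0.01, and on the spike-in scale -1.82, so no direction of Cd48 is drawn here. Slamf7 (CRACC), a receptor of natural killer, plasma and some myeloid cells, read 847 and 845 at its only probe (0.63 ± 0.20; 0.00 without scaling and -1.81 on the spike-in scale). Neither gene reached 2-fold on the main scale.

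Ly9 (CD229), a receptor of T and B cells, read 826 in negative and 527 in positive cells at its only probe, A_51_P497171, a difference of -0.02 ± 0.20. Cd84, found on B cells, T cells, platelets and phagocytes, gave unlike values at its 3 probes. The brightest, A_55_P2713778, read 1011 and 616 (-0.08 ± 0.20), and A_55_P2487504, named for transcript variant 2, read 280 and 218 (0.27 ± 0.21). Probe A_55_P2054445, which matches across 2231 genomic bases of variant 1, read 381 and 756 (1.62 ± 0.21, 3.08-fold higher). The junction-crossing probe therefore differed from both others by more than the scanner errors, and it alone passed 2-fold. On the spike-in scale that probe stood at -0.82.

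Slamf8, also called BLAME, a receptor of macrophages and dendritic cells, was detected in the S100A4-positive fraction alone. Its only probe read 16.4, not well above background, in negative cells and 1933 in positive cells, 183-fold higher by the plain ratio (7.51 ± 0.51). Slamf9, a receptor known from macrophages and dendritic cells, was detected in both fractions. Its probe read 194 in negative cells and 2943 in positive cells, 23.6-fold higher (4.56 ± 0.21). Both stayed above 0 under every scaling run, at 5.07 and 2.12 on the spike-in scale. Each of these genes has a single probe on the array, so no second probe was there to compare.

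The promoters of this pair are shown because they are the members that were higher together. RefSeq's promoter table (build GRCm38.p6, used for these sequences and for gene order alone) held 8 of the 10 members, and the 250 bases before the start site were searched on both strands for the PU.1 box GAGGAA, the E-box CAGNTG and the Runx site TGNGGT. Capitals mark matches. E-box counts here are of the form CAGNTG alone. Other E-box forms, such as the cacgtg in both promoters printed below, were not searched for and stay in lower case. Slamf9 holds 1 PU.1 box, which 23.3% of all 32851 promoters of this length hold, and 3 E-boxes of the form CAGNTG. None of the other members searched holds a PU.1 box. Slamf8 holds 1 E-box of the form CAGNTG and no match to the other motifs searched. E-boxes are not particular to this pair: Slamf1, Slamf6, Slamf7, Cd84 and Cd244 hold 1 each, and Cd48 holds none. E-boxes occur in 44.8% and Runx sites in 40.1% of all promoters, and Runx matches were found here in Slamf6, Cd48 and Cd84, of which the first in Cd84 overlaps its E-box. These are matches of letters, and no binding was measured.
Slamf8, chr1:172590569-172590818, minus strand: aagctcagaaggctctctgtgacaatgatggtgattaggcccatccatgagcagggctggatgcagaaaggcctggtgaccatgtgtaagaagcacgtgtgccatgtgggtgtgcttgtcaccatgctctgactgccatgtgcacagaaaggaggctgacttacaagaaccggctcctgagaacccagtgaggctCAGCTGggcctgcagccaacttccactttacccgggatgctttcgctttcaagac
Slamf9, chr1:172475110-172475359, plus strand: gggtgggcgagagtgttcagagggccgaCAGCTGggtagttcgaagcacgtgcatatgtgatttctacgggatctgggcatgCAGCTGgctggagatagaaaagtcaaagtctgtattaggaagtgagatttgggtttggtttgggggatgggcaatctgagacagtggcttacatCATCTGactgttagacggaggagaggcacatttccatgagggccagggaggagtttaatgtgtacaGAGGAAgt

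The genes that work with SLAM receptors and SAP were measured on both arrays in 24 of 25 cases, the adaptor gene Sh2d1b2 being well above background on neither. Of these, 2 passed 2-fold upwards (21.4% of all genes) and 9 downwards (17.0%), with a median of -0.68 beside 0.01 for all genes. Cd2, a receptor for Cd48 and a structural relative of the family, read 14642 in negative and 301 in positive cells, 31.3-fold lower (-4.97 ± 0.20). Sh2d1b1, the EAT-2 adaptor gene, read 142 and 131 (0.52 ± 0.21). Of the adaptors, SAP thus differed between the fractions by far more than EAT-2.

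Among the kinases, Prkcq, the T cell protein kinase C that acts downstream of SAP, was 16.3-fold lower (1187 against 47.1; -4.02 ± 0.23) and stood at -2.41 at its other probe. Lck, the Src-family kinase of T cells, was 6.29-fold lower (18785 against 1926; -2.65 ± 0.20), and Csk, which restrains Src-family kinases, 3.26-fold lower (-1.70 ± 0.20). Fyn, the kinase that SAP recruits, read 785 and 542, a difference of 0.10 ± 0.20. Lyn, its relative of B and myeloid cells, stood at 0.04 ± 0.20 and, at its other probe, at 0.72. Fgr, a Src-family kinase of myeloid cells, was 2.65-fold higher (615 against 1051; 1.41 ± 0.20); it did not pass 2-fold without scaling (0.77), and on the spike-in scale it lay below 0 (-1.04). Syk stood at -0.56 ± 0.20, with its 4 detected probes between -0.90 and 0.09. At the probes used for the counts, Lck and Fgr lay on both sides of Fyn and Lyn, whose centred levels there were nearly equal between the fractions.

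**Figure D3:**
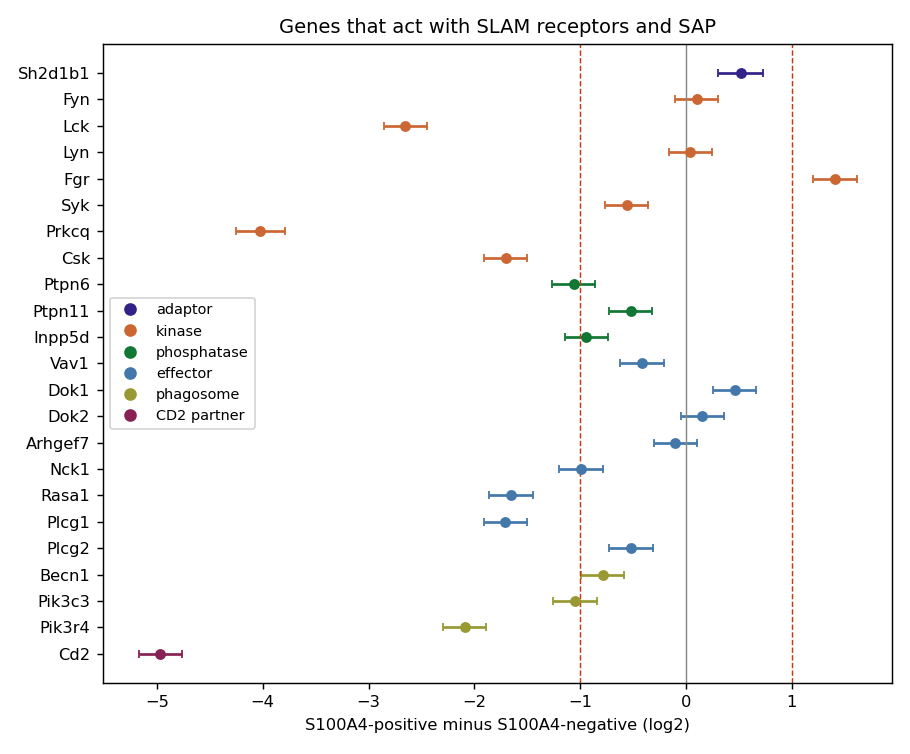
Difference between the S100A4-positive and S100A4-negative array (log2) for measured genes that act with SLAM receptors and SAP, coloured by role, with bars for the scanner software's error and dashed lines at 2-fold. Cd2 (-4.97), Prkcq (-4.02) and Lck (-2.65) lie farthest to the left, and Fgr (1.41) lies past 2-fold on the right.

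The phosphatases that dock on unoccupied switch motifs were close to the 2-fold size or within it. Ptpn6 (SHP-1) was 2.09-fold lower (-1.06 ± 0.20), with its 4 probes between -1.20 and -0.82. Inpp5d (SHIP-1) stood at -0.94 ± 0.20, and Ptpn11 (SHP-2) at -0.52 ± 0.20 and, at its other probe, at 0.23. Of the other effectors, Plcg1 was 3.27-fold lower (-1.71 ± 0.21) and Rasa1 3.14-fold lower, although another Rasa1 probe stood at -0.01. The remaining effectors, Vav1, Dok1, Dok2, Arhgef7, Nck1 and Plcg2, lay between -0.99 and 0.46 at the probes used for the counts, with another Arhgef7 probe at 0.69. Of the phagosome partners of Slamf1, Pik3r4 was 4.27-fold lower (another of its 4 probes stood at -0.19) and Pik3c3 2.07-fold lower (-1.05 ± 0.21), with Becn1 at -0.79 ± 0.20.

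Lineage markers moved with these members, and their part in the differences was not tested. T cell markers were at least 2-fold lower in 8 of 11 cases and higher in 1, Thy1 (8079 and 21373, 2.04). Their summed signal, in units of each array's 75th percentile, was 165 in negative and 101 in positive cells. Thy1 alone made up most of that sum in positive cells. All 11 were well above background on both arrays, with Lck as given above and Cd6 at 7949 and 1223. The 8 T follicular helper markers summed to 75.5 against 32.5. Of these, 4 were lower (Cxcr5, Il21, Ascl2 and Bcl6, whose other probe stood at 0.0045) and 1, Pdcd1, was higher (573 and 1075). Il21 and Ascl2 were not well above background in positive cells. B cell markers were lower in all 12 cases (468 against 26.9), with Ms4a1 at 33700 and 588 and Pax5 not well above background in positive cells, and germinal centre B cell markers in all 7 (49.5 against 10.3), with Rgs13 among those not well above background there. The 8 plasma cell markers summed to 186 against 71.8, with 5 lower, among them Jchain and Mzb1, and 2 higher, Sdc1 and Prdm1. Natural killer and cytotoxic markers were lower in 4 and higher in 3 of 10 cases (185 against 34.0): Gzma stood at -6.59, Gzmb at -3.35 and Klrd1 at 2.87, and Ncr1, not well above background in negative cells, was at least 4.38-fold higher. The T cell, B cell, germinal centre and plasma cell lists were lower in most or all of their markers. So were the epithelial list and, in 4 of 7 markers, the mast cell and granulocyte list, both given below. Sh2d1a, Slamf1 and Slamf6 were lower as well, while the natural killer and cytotoxic list went both ways.

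On the other side, macrophage and monocyte markers were at least 2-fold higher in all 12 cases (51.3 against 693), with Lyz2 at 2160 and 110401, and Fcgr1 among those not well above background in negative cells. Classical dendritic cell markers were higher in 8 of 9 measured cases (52.0 against 180), with Itgax at 1184 and 12781 and Clec9a, Clec10a, Cd209a and Zbtb46 not well above background in negative cells. Plasmacytoid dendritic cell markers were higher in 4 (Cox6a2, Bst2, Ccr9 and Irf7) and lower in 1, Spib, of 7 (98.6 against 290). That count depends on the probe used: Siglech stood at 0.37 and Tcf4 at 0.03, but other probes of theirs at 7.27 and 3.40. Innate lymphoid cell markers were higher in 8 of 9 (15.9 against 204), Rora by 4.46. Mast cell and granulocyte markers were higher in 3 and lower in 4 of 7 measured cases (3.79 against 14.2), with a median of -1.08. Kit, which the innate lymphoid list also holds, read 389 and 3832 and made up most of the sum in positive cells. By contrast, S100a8 (-1.48) and S100a9 (-1.93) were lower. Epithelial markers were lower in 6 and higher in 1, Cdh1, of 8 (30.6 against 4.22). On the spike-in scale 10 of 12 macrophage and monocyte markers, 7 of 9 classical dendritic cell markers and 6 of 9 innate lymphoid cell markers were 2-fold higher, while the plasmacytoid median turned from 1.51 to -0.93. The macrophage and monocyte, classical dendritic cell, plasmacytoid and innate lymphoid lists were thus higher in most or all of their markers. Slamf8 and Slamf9 were higher as well, while the mast cell and granulocyte list was not higher in most.

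The receptor genes also share a place in the genome. All 9 lie on chromosome 1, with Cd244 and Slamf8 at the ends, and Sh2d1a on the X chromosome. Of 21 other genes on the array that the gene table places between Cd244 and Slamf8, 15 were measured, of which 5 were at least 2-fold higher (21.4% of all genes) while 2-fold lower genes numbered 0 (17.0%); the median was 0.48. Those 5 were Kcnj10, a potassium channel gene (at least 22.6-fold), Cfap45 (at least 7.94-fold), Pea15a (5.96-fold), Igsf8, an immunoglobulin-like membrane protein gene that is no SLAM member (4.92-fold), and Tagln2, an actin-binding protein gene (2.82-fold). They lie on the Slamf9 and Slamf8 side of the stretch, and no other gene between Cd244 and Slamf6 was measured. The same side also held Pigm (-0.87), Gm35522 (-0.54, a bound), Igsf9 (-0.12) and 4933439K11Rik (0.48), none of them counted past 2-fold. The 6 genes from Vangl2 to Dcaf8, next to Slamf6, lay between -0.32 and 0.56. On the spike-in scale Kcnj10 alone of the 5 was 2-fold higher (2.05), and Igsf8 (-0.15) and Tagln2 (-0.95) lay below 0.

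**Figure D4:**
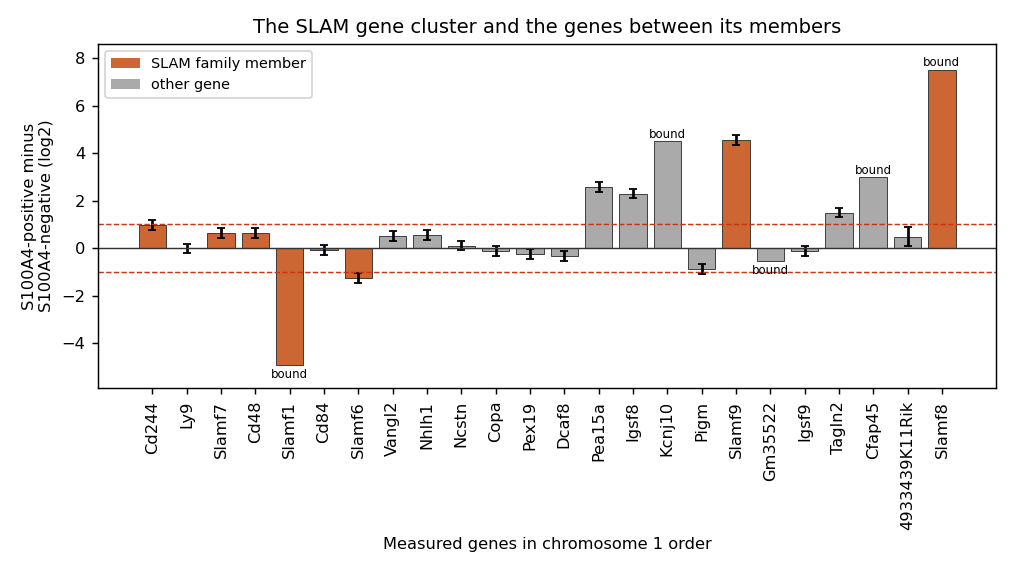
Difference between the S100A4-positive and S100A4-negative array (log2) for the measured genes of the SLAM stretch of chromosome 1 in chromosomal order, orange for members and grey for others, with bars for the scanner software's error and bounds marked as such. Slamf1 (-4.91) and Slamf6 (-1.27) are the members below the lower dashed 2-fold line, and Slamf9 (4.56) and Slamf8 (7.51) lie above the upper one at the other end.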

How the data were processed

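RNA of the S100A4-negative and S100A4-positive cells, extracted with ISOGEN and amplified with a low-input kit, was hybridised in Cy3 to 1 Agilent 1-colour mouse array each (design 74809, mm9 positions). The deposited files hold, per the file headers, the processed signal of Feature Extraction 10.7.1.1, a background-corrected intensity on a linear scale; the submitters' processing notes give version 9.5.1.1. The deposited value table, an intensity of unstated making, was an alternative only.

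Control spots and outlier spots were left out, spots of a probe averaged, and log2 signals centred on each array's 75th percentile (445.9 and 287.3). A gene took its brightest probe among those well above background on at least 1 array. A gene seen on 1 array was taken at its bound: the bright signal over either the dim probe's own or the lowest signal well above background there, whichever is higher (16.1 on the negative, 15.7 on the positive array). With 1 array a group, 2-fold counts stand in for tests, and the number of arrays limits the precision. Gene names came from the files, updated through RefSeq accessions, symbols and synonyms; 14151 spots stayed unnamed. The calculation was tested on simulated data. Analyses used Python 3.11.15, numpy 2.4.6, pandas 2.3.3, R 4.3.3 and limma 3.58.1.

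The members and gene lists were chosen with earlier results of these data known. Named are all members, the signalling genes past 2-fold, S100a4, and up to 3 genes of highest mean signal per marker list; other signalling genes, genomic neighbours, markers at background and markers that spell out small counts were named after their values were seen. Some genes of these lists enter the counts and sums but are not reported here by name.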

Additional observations from a re-analysis of the deposited data

How the results depend on the processing

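Relative to the 75th percentile, 2 members were higher and 3 lower. Those counts were 1 and 1 over genes well above background on both arrays, which drops Slamf8, Slamf1 and Sh2d1a, and 8 were lower on the spike-in scale. Cd244 joined the higher members, 3 in all, under quantile, cyclic loess and normexp normalization, the deposited table and the median over probes. All genes numbered 3265 higher and 2598 lower (55.7% of calls higher), but 616 and 12608 on the spike-in scale (4.66%), 1965 and 5341 without scaling (26.9%), and 1507 and 761 at 4-fold. Signalling genes numbered 0 higher and 23 lower on the spike-in scale, 0 and 16 without scaling, and 0 and 4 at 4-fold. Neighbours numbered 1 higher and 10 lower on the spike-in scale, 3 higher over genes on both arrays, 2 lower without scaling and 1 lower by measured differences. On the spike-in scale Cd244 probes A_52_P541344 and A_55_P2900848 stood at -0.78 and -1.12 and Cd84 probe A_55_P2054445 at -0.82. With normexp, Slamf1 stood at -2.78, Sh2d1a at -3.03 and Slamf8 at 5.15, with no change of call. Which scale is nearer the truth was not tested. The values of Slamf8, Slamf1 and Sh2d1a are plain ratios to a reading not well above background on the dim array, so the true folds could be smaller. No paired analysis was possible because each group has 1 array.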
